A study of Mus musculus with 24 samples.

Results

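Cdk6, its sister kinase Cdk4, the D-type cyclins that switch them on and the inhibitors that hold them back were examined as chromatin loci in mouse erythroleukaemic cells. The members are 10 genes chosen by name: the kinases Cdk4 and Cdk6, the cyclins Ccnd1, Ccnd2 and Ccnd3, the inhibitors Cdkn1a, Cdkn1b and Cdkn1c, and the inhibitors Cdkn2c and Cdkn2d. Every deposited peak that touched the body of a member, or the 5 kb beyond either annotated end, was taken. That gave 37 of 23341 H3K27ac peaks in the Dox_Treated list and 48 of 28902 in the Dox_Untreated list. In H3K4me1 it gave 54 of 101388 peaks in the Dox_Treated list and 86 of 119362 in the Dox_Untreated list. The genes are 10 of the 21887 protein-coding genes of the annotation.

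The cells are TgSpi1 leukaemic erythroid cells (#763) from bone marrow, grown in erythropoietin (EPO). Their Spi1 transgene overexpresses SPI1 (PU.1), an ETS transcription factor of myeloid and B cells. Dox_Treated cells received doxycycline for 48 h, which induces a short hairpin RNA against Spi1. Dox_Untreated cells carry the same transgene and the same inducible hairpin and received no doxycycline. All cultures used here come from this 1 line, and no group had doxycycline without the hairpin, so that effects of the drug, of the hairpin and of less SPI1 cannot be told apart.

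D-type cyclins bind CDK4 and CDK6, and the active kinases phosphorylate RB and its relatives, which frees E2F factors to drive the genes of S phase. CDKN2C and CDKN2D, of the INK4 family, bind the kinase itself, while CDKN1A, CDKN1B and CDKN1C, of the CIP/KIP family, bind cyclin and kinase together. In red cell precursors the last divisions are tied to maturation, cyclin D3 is known to shape their number, CDK6 to hold back the maturation of erythroleukaemia cells, and CDKN1B and CDKN2C rise as the cells stop dividing. H3K27ac, acetylation of lysine 27 of histone H3, marks active promoters and enhancers. H3K4me1, monomethylation of lysine 4, marks enhancers whether active or not.

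Promoter sequences of 3 members are shown because the differences in acetylation at Cdk6 and Ccnd3 lay outside these windows, and because Cdkn1a has 2 annotated starts with and without the mark. Each runs from 250 bases before to 50 bases after an annotated start, is given 5′ to 3′ on the plus strand from RefSeq on GRCm38.p6 (the assembly behind mm10), and has in capitals the bases inside an H3K27ac peak of both lists. The windows lie at chr5:3343643-3343942 for Cdk6, at chr17:47504801-47505100 and chr17:47593217-47593516 for starts 1 and 2 of Ccnd3, and at chr17:29090729-29091028 and chr17:29093519-29093818 for starts 1 and 2 of Cdkn1a.
Cdk6: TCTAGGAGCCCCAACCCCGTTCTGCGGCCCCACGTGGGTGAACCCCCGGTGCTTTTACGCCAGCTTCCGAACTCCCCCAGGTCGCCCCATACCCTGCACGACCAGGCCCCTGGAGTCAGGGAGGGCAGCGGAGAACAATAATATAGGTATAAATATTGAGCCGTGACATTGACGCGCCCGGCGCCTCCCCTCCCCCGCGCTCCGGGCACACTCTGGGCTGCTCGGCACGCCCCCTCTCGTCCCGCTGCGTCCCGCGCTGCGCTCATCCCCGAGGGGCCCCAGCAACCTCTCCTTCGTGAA
Ccnd3 start 1: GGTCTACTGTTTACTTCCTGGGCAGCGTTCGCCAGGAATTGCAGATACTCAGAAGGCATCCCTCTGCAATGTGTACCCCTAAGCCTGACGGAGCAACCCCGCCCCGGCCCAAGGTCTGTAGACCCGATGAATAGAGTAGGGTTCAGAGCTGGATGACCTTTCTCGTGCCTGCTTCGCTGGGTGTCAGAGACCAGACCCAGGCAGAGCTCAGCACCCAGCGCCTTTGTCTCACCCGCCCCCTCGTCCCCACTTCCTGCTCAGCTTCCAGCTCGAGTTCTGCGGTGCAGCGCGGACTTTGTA
Ccnd3 start 2: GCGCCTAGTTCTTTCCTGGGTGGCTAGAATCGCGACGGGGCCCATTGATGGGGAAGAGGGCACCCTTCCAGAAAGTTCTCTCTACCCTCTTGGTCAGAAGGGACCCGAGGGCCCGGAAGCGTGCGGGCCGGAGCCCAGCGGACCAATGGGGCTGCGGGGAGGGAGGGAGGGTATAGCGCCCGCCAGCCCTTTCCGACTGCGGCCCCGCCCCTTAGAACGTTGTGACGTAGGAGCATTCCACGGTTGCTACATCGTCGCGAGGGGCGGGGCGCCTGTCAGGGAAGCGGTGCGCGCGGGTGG
Cdkn1a start 1: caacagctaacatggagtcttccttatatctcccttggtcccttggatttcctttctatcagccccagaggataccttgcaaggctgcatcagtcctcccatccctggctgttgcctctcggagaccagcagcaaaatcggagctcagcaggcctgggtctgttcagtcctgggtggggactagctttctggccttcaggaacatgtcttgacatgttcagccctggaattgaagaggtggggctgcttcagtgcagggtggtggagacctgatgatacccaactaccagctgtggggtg
Cdkn1a start 2: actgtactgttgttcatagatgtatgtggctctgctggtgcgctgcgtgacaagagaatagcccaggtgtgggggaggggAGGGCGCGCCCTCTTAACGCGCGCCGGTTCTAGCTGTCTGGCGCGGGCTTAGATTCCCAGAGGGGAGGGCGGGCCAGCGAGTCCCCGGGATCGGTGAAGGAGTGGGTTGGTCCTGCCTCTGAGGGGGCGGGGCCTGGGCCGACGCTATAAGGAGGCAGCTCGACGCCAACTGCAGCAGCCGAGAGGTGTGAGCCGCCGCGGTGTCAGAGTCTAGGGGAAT

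The Cdk6 window and both Ccnd3 windows were acetylated over all 300 bases in both conditions. At Cdkn1a the distal start had no acetylation, its nearest H3K27ac peak lying 2220 bp away in Dox_Treated cells and 2620 bp away in Dox_Untreated cells. The start 2790 bp further downstream was acetylated over 300 bases in Dox_Treated cells and over 220 in Dox_Untreated cells. The promoter table held 10 windows for 7 of the 10 members, and none was used for Ccnd1, Ccnd2 or Cdkn1c. H3K27ac touched 9 of the 10 windows in each condition and covered 9 whole in Dox_Treated cells and 6 whole in Dox_Untreated cells. Over all 32851 windows of the table, it touched 33.3% in the treated list and 33.2% in the untreated list. It covered 28.3% whole in the treated list and 26.0% in the untreated list. The 3 member windows that were whole in the treated list alone were Cdk4, with 300 bases in Dox_Treated and 86 in Dox_Untreated cells, Cdkn2d, with 300 and 142, and the downstream start of Cdkn1a. The letters GAGGAA, or TTCCTC on the other strand, are 1 form of the sites that SPI1 binds. They stood in 1 of the 10 windows, the second start of Cdkn2c, against 28.3% of all windows. Other forms of ETS sites were not counted. The GATA letters AGATAA or TTATCT stood in 0 of 10, against 11.2%, and the GC box GGGCGG or CCGCCC in 7 of 10, against 35.7%. None of these strings contains another, and a match or its lack describes these windows alone.

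Each mark and condition is represented by 1 deposited peak list. For H3K27ac a list stands for replicates 1 and 2 combined, and for H3K4me1 it holds replicate 1. No value therefore has a replicate error and no difference could be tested. The measure is covered length, the bp of a gene and its 5 kb flanks that lie under peaks, and it says nothing of how high the signal was. Over the whole genome the lists covered 41.2 Mb in Dox_Treated and 41.5 Mb in Dox_Untreated cells for H3K27ac, and 195.0 Mb and 184.0 Mb, in the same order of groups, for H3K4me1. Treated peaks were fewer and wider, with median widths of 1353 bp in Dox_Treated against 1003 bp in Dox_Untreated cells for H3K27ac and 1153 bp against 903 bp for H3K4me1. Read depth behind the lists is unknown. In a bulk culture, fewer cells with a mark and less of the mark per cell cannot be told apart. Of 11 erythroid marker genes, all had H3K4me1 in both lists, and 10 in Dox_Treated and 9 in Dox_Untreated cells had H3K27ac. Their summed H3K27ac was 71899 bp in Dox_Treated and 54531 bp in Dox_Untreated cells, and their summed H3K4me1 168294 bp and 133742 bp. Among them Alas2 had 7215 bp of H3K27ac in Dox_Treated and 1406 bp in Dox_Untreated cells, Hba-a1 6109 bp and 0 bp, and Slc4a1 1953 bp and 0 bp. The erythroid markers Gata1, Klf1, Tal1 and Kit went the other way in H3K27ac, and the others were longer in Dox_Treated cells. Gata1 had 10315 bp in Dox_Treated and 12012 bp in Dox_Untreated cells, and Klf1 7349 bp and 7402 bp. Tal1 had 9603 bp and 9856 bp, and Kit 0 bp and 403 bp. The part of these erythroid differences in the results on the members was not tested. Of 7 myeloid markers, Itgam, Mpo, Elane, Lyz2 and Ly6g had no H3K27ac in either list. Over all 7 the summed acetylated length was 656 bp in Dox_Treated and 2112 bp in Dox_Untreated cells. All 4 megakaryocyte markers were acetylated, over 25032 bp in Dox_Treated and 14739 bp in Dox_Untreated cells. At 4 B cell markers the acetylated length was 4759 bp in Dox_Treated and 2856 bp in Dox_Untreated cells. At 4 T cell markers it was 3628 bp and 2278 bp, and at 4 stromal and endothelial markers 0 bp and 653 bp. The part of any such cells in the results was not tested.

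Acetylation was shorter at 2 members and longer at 7 in Dox_Treated cells, and Ccnd2 had no peak. Across the 8 alternative settings described below, that direction held in all for Cdk6, Ccnd1, Cdkn2c and Cdkn2d. It turned in 2 settings each for Cdk4 and Cdkn1b and in 1 each for Cdkn1a and Ccnd3. In gene bodies alone the Cdkn1c difference was 0 bp. A gene was taken as changed when its covered length differed by at least 1.5-fold and at least 1000 bp. By that rule Cdk6 and Ccnd1 were lower in H3K27ac and 0 members were higher. Cdkn1c passed as higher when the better 50% of each list was used, a cut by width that removed its 903 bp untreated peak. Over all 12314 genes with an H3K27ac peak, 8.09% were lower and 7.27% higher by the same rule, and 50.5% were shorter and 46.7% longer by any length. In H3K4me1 no member passed the rule in either direction, against 4.63% lower and 8.21% higher of 16363 genes. Of the members with H3K4me1, 6 were longer and 3 shorter in Dox_Treated cells, and over all genes 60.7% were longer and 38.7% shorter. With treated lengths scaled to the untreated total, Cdkn1b also became shorter in H3K4me1. The H3K4me1 direction held in all 8 alternative settings at Cdk6, Ccnd3, Cdkn1a and Cdkn2c alone. The median difference of the 9 members with peaks was 400 bp in H3K27ac, beside -7.0 bp over all genes, and 691 bp in H3K4me1, beside 391 bp over all genes.

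**Figure D1:**
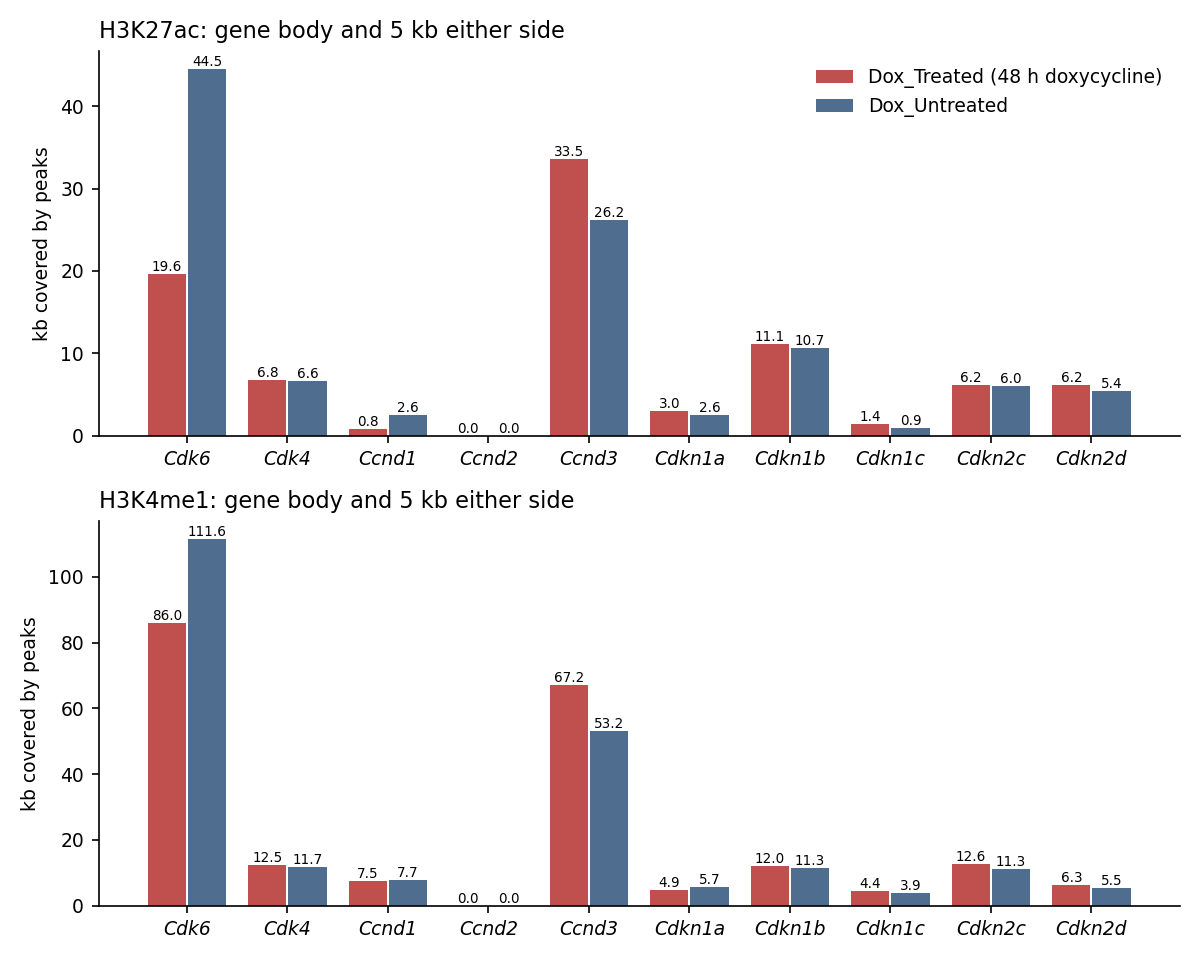
Bars give the kb covered by H3K27ac (top) and H3K4me1 (bottom) peaks in each member gene with its 5 kb flanks, in Dox_Treated (red) and Dox_Untreated (blue) cells, with 1 list per bar and so no error bars. The Cdk6 bar is lower in Dox_Treated cells in both marks, that of Ccnd3 is higher in both, and Ccnd2 has no peak.

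**Figure D2:**
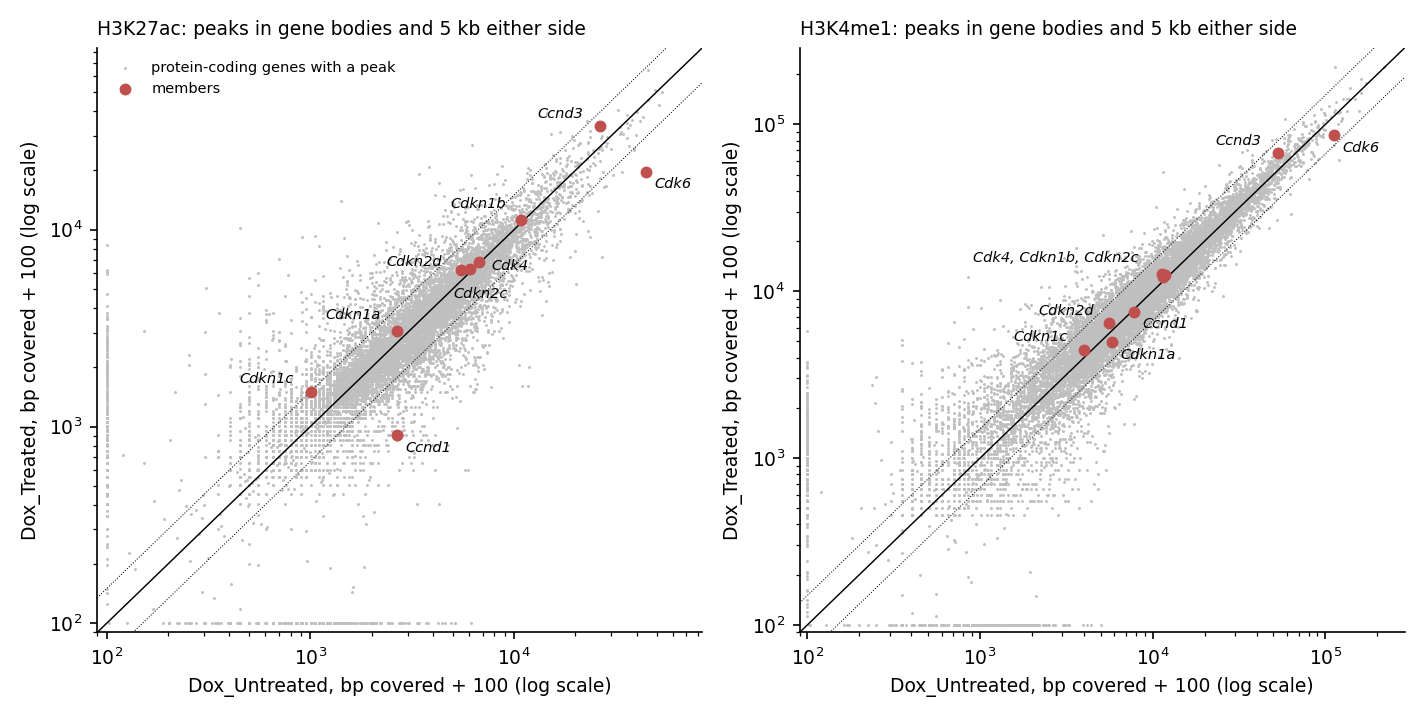
Covered length in bp plus 100 (log axes) in Dox_Treated cells (vertical) against Dox_Untreated cells (horizontal), with each protein-coding gene that has a peak in grey and the members in red; the solid line marks equality and dotted lines 1.5-fold. In H3K27ac, Cdk6 and Ccnd1 lie below the lower dotted line, and in H3K4me1 all members with peaks lie between the dotted lines.

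The direction of the sums over the members rested on Cdk6. H3K27ac covered 88485 bp of the 10 genes in Dox_Treated and 105468 bp in Dox_Untreated cells, a ratio of 0.839. Without Cdk6, the sums were 68908 bp in Dox_Treated and 60973 bp in Dox_Untreated cells, a ratio of 1.13. Without Cdk6 and Ccnd3, the ratio was 1.02. H3K4me1 gave a ratio of 0.961 over all members, 1.15 without Cdk6 and 1.05 without Cdk6 and Ccnd3.

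Cdk6 encodes the kinase that D-type cyclins activate in blood cells, and it spans 190005 bp on the plus strand (chr5:3341004-3531008, mm10). H3K27ac covered 19577 bp of it in Dox_Treated cells, against 44495 bp in Dox_Untreated cells, a ratio of 0.44 and a difference of -24918 bp. This was the largest decrease in acetylated bp of all 21887 genes, although it ranked 501st when no more than 5 kb around the annotated ends was counted. Among the 87 genes with a mean of at least 20 kb of acetylation, Cdk6 also had the lowest ratio, where the median ratio was 1.0 and 6.9% were lower by the rule above. By acetylated length Cdk6 ranked 97th of all genes in Dox_Treated cells and 6th in Dox_Untreated cells. The largest peak behind this difference was already known when the gene was chosen, so the rank is a description.

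Acetylation was shorter at every site of Cdk6. Merging overlapping peaks of both lists gave 14 sites, and each was shorter in Dox_Treated cells. No site was found in the treated list alone, and 98.2% of the bp acetylated in Dox_Treated cells were acetylated in Dox_Untreated cells too. In the other direction, 43.2% of the bp acetylated in Dox_Untreated cells remained in Dox_Treated cells. The block over the promoter (-1.41 to 4.95 kb from the annotated 5′ end) kept 4853 bp in Dox_Treated cells, against 6353 bp in Dox_Untreated cells. A block at 16.3 to 23.7 kb held 5603 bp in Dox_Treated and 7403 bp in Dox_Untreated cells, and one at 10.7 to 15.9 kb held 3112 bp and 5003 bp. Among the sites in both lists, the last block, at 169.9 to 175.0 kb, differed least, with 4353 bp in Dox_Treated and 4856 bp in Dox_Untreated cells. Smaller sites in both lists stood at 136.3 to 137.6 kb, with 653 bp in Dox_Treated and 1353 bp in Dox_Untreated cells, and at 167.2 to 169.6 kb, with 1003 bp and 2453 bp.

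The far side of the gene carried most of the difference. Split at the midpoint of the gene, the 5′ side had 13568 bp of H3K27ac in Dox_Treated and 20015 bp in Dox_Untreated cells, a ratio of 0.678. On the 3′ side there were 6009 bp in Dox_Treated and 24480 bp in Dox_Untreated cells, a ratio of 0.245. No H3K27ac peak of either list lay between 23.7 and 119.1 kb. The widest Cdk6 peak of the untreated list (chr5:3493049-3504551, 152.0 to 163.5 kb into the gene) was 11503 bp wide and the 36th widest of that list. No bp of it was acetylated in Dox_Treated cells. A second block of over 1000 bp, at 141.9 to 143.6 kb, was 1703 bp wide in Dox_Untreated cells and also had no treated counterpart. The other 6 sites of the untreated list alone were 503 to 853 bp wide and stood at 8.14, 9.85, 119.1, 141.1, 163.7 and 164.8 kb.

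H3K4me1 was present in Dox_Treated cells over nearly all of the Cdk6 bases that were acetylated in Dox_Untreated cells alone. Of the 25265 bp of Cdk6 acetylated in the untreated list alone, 24815 bp (98.2%) lay under treated H3K4me1 peaks and 100% under untreated ones. Over the whole lists the same held for 96.5% of 9.56 Mb under treated H3K4me1 and 98.1% under untreated, so the Cdk6 share is close to the general one. All 8 sites of the untreated list alone had H3K4me1 in Dox_Treated cells, the one at 164.8 kb over 153 of its 503 bp. A treated H3K4me1 peak of 12853 bp (152.1 to 164.9 kb) covered 11453 of the 11503 bp named above. In the untreated list a single H3K4me1 peak of 25953 bp, ranked 29th by the authors' score, ran from 150.6 to 176.6 kb. In Dox_Treated cells this stretch held the 12853 bp peak, ranked 650th, and one of 10953 bp.

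**Figure D3:**
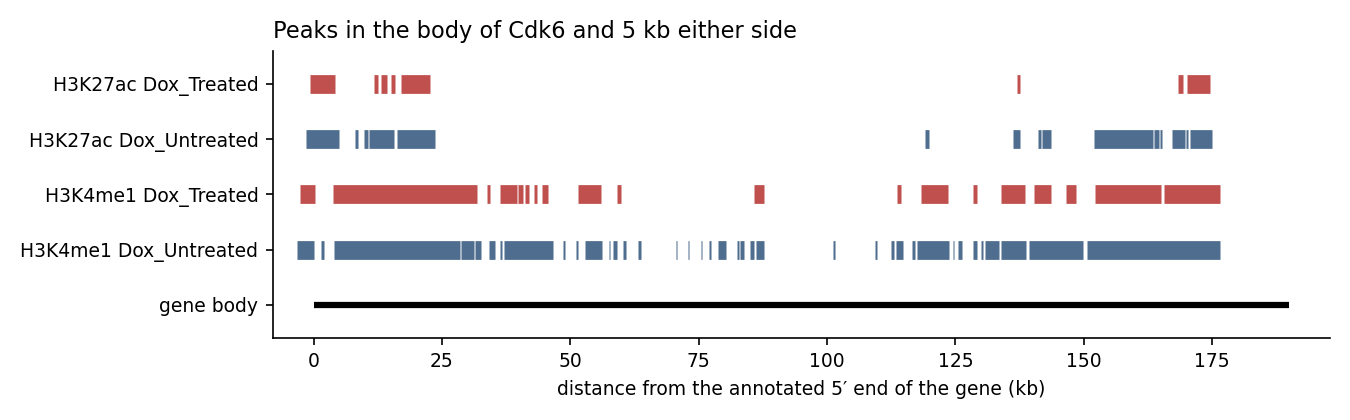
H3K27ac and H3K4me1 peaks of Dox_Treated and Dox_Untreated cells along Cdk6 (gene body in black), by distance in kb from its annotated 5′ end. Acetylation between 152.0 and 163.5 kb is present in Dox_Untreated cells alone, while H3K4me1 is present there in both.

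Total H3K4me1 over Cdk6 was 86007 bp in Dox_Treated cells in 19 peaks, against 111564 bp in Dox_Untreated cells in 38 peaks, a ratio of 0.771. Of the 1962 genes with a mean of at least 20 kb of H3K4me1, 1.53% were lower and 4.18% higher by the rule above. All 19 treated peaks overlapped an untreated one. Of the 38 untreated peaks, 21 had no treated counterpart, and 19 of these were under 1000 bp. The 21 had a median width of 453 bp, beside 903 bp over the whole untreated list. They summed to 12663 bp, and the widest, 2753 bp, stood at 130.7 to 133.4 kb. Over the whole lists, 79.2% of treated and 73.3% of untreated H3K4me1 peaks overlapped one of the other condition. At the 5′ end the treated list had its widest Cdk6 peak, 28053 bp from 3.79 to 31.8 kb, where the untreated list had one of 24653 bp from 3.9 to 28.5 kb. Split at the midpoint, the ratio of H3K4me1 was 0.819 on the 5′ side and 0.723 on the 3′ side. The Cdk6 promoter window itself had no H3K4me1 in either condition.

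The 5 genes whose 4 covered lengths were nearest to those of Cdk6 among 14292 genes were Sik3, Zeb2, Rreb1, Sema4d and Pip4k2a. Likeness was the Euclidean distance of log2(bp + 100) over the 4 lists and ran from 0.701 for Sik3 to 0.818 for Pip4k2a. Sik3 had 25989 bp of H3K27ac in Dox_Treated and 38810 bp in Dox_Untreated cells, and Sema4d 25233 bp and 38554 bp. All 5 had more acetylated length than Cdk6 in Dox_Treated cells and less in Dox_Untreated cells.

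Cdk4, the sister kinase, is short (chr10:127063535-127067288), and peaks covered close to the same length of it in both conditions. H3K27ac covered 6759 bp in Dox_Treated and 6615 bp in Dox_Untreated cells, and H3K4me1 12460 bp and 11663 bp. One treated acetylation peak of 2553 bp stood at the promoter, where the untreated list had peaks of 453 and 2453 bp with a gap between them. The widest H3K27ac peak in the window was 3003 bp in Dox_Treated cells and 2453 bp in Dox_Untreated cells. Its whole window lies within the windows of Cyp27b1, Marchf9, Tspan31 and Agap2, so that none of these peaks belongs to Cdk4 alone.

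Cyclin D3, the D-type cyclin tied to erythroid division number, had longer coverage in Dox_Treated cells in both marks, without passing the rule in either. Ccnd3 (chr17:47505051-47599689) had 33545 bp of H3K27ac in Dox_Treated and 26242 bp in Dox_Untreated cells, a ratio of 1.28, which is under the 1.5-fold rule. H3K4me1 was longer as well, with 67152 bp in Dox_Treated and 53166 bp in Dox_Untreated cells, a ratio of 1.26. By H3K27ac difference Ccnd3 stood 50th of 21887 genes from the top, and by ratio 15th of the 87 genes with long acetylation. It also lies beside Taf8 and Bysl. In the part of its window that no neighbour shares, acetylation covered 24092 bp in Dox_Treated and 14639 bp in Dox_Untreated cells.

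The added Ccnd3 acetylation lay inside the gene and not at its ends. Of 15 sites, 9 were longer and 6 shorter in Dox_Treated cells. Inside the gene, the site at 61.6 to 65.2 kb from the annotated 5′ end held 3603 bp in Dox_Treated and 1653 bp in Dox_Untreated cells, and that at 28.8 to 32.0 kb held 3253 bp and 1653 bp. A 2253 bp peak at 72.4 to 74.7 kb (chr17:47577449-47579701) was in the treated list alone, and untreated H3K4me1 covered 2053 bp of it. The other sites of the treated list alone were 953 bp wide at 59.8 kb and 403 bp wide at 80.0 kb. At the 5′ end the order was turned. The upstream site at -3.65 kb had 1453 bp in Dox_Treated and 2253 bp in Dox_Untreated cells, the site over the first start 1603 bp and 1803 bp, and that at 1.75 to 4.55 kb 2103 bp and 2803 bp. At the 3′ end, the site at 93.2 to 96.6 kb had 2653 bp in Dox_Treated and 3303 bp in Dox_Untreated cells. Counting no more than 5 kb around each annotated end, the direction flips, with 11175 bp in Dox_Treated and 13525 bp in Dox_Untreated cells. Over the second start, 88416 bp into the gene, the site at 85.6 to 93.0 kb had 7156 bp in Dox_Treated and 6456 bp in Dox_Untreated cells. Of 10303 bp acetylated in the treated list alone, 96.1% lay under untreated H3K4me1 and 99.5% under treated, against 91.8% and 96.9% over the whole lists. The widest H3K27ac peak of Ccnd3 was 5653 bp in Dox_Treated and 5953 bp in Dox_Untreated cells, and the widest H3K4me1 peak 10753 bp in Dox_Treated and 8003 bp in Dox_Untreated cells.

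**Figure D4:**
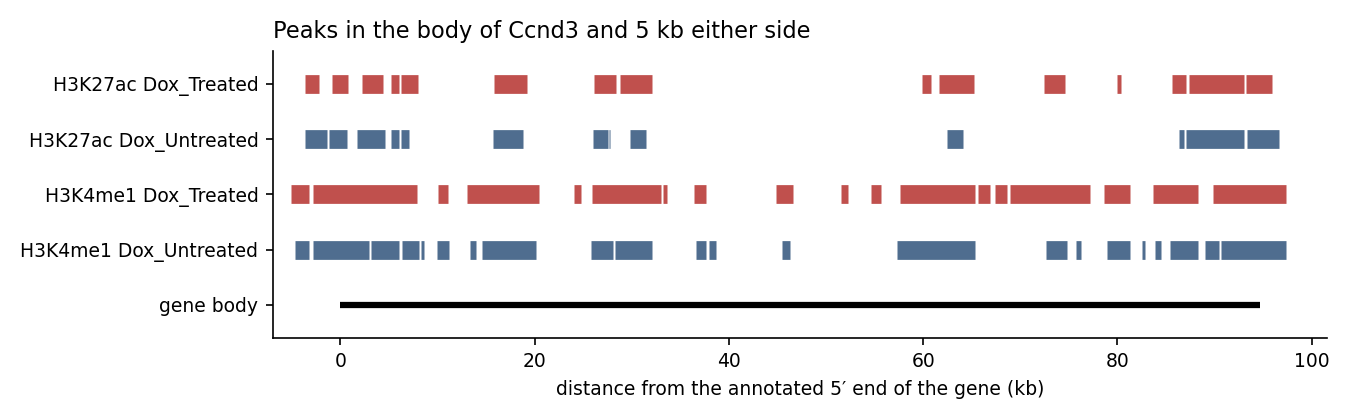
H3K27ac and H3K4me1 peaks of Dox_Treated and Dox_Untreated cells along Ccnd3 (gene body in black), by distance in kb from its annotated 5′ end. Sites deeper in the gene, such as that at 61.6 to 65.2 kb, are mostly longer in Dox_Treated cells. Those from -3.65 to 6.05 kb and that at 93.2 to 96.6 kb are shorter.

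Ccnd1, the cyclin D gene that growth factor signals induce in many tissues, had little acetylation and less of it in Dox_Treated cells. H3K27ac covered 803 bp of its window (chr7:144929931-144939831 with flanks) in Dox_Treated and 2559 bp in Dox_Untreated cells, a ratio of 0.314. In Dox_Treated cells this was 1 peak of 803 bp, and in Dox_Untreated cells 3 peaks of 1053, 903 and 603 bp. The last 2 had no treated counterpart, though treated H3K4me1 covered both whole. H3K4me1 over Ccnd1 was 7456 bp in Dox_Treated and 7659 bp in Dox_Untreated cells. In the gene body alone, acetylation was 803 bp in Dox_Treated and 1636 bp in Dox_Untreated cells, which misses the rule. Part of the Ccnd1 window is shared with LTO1, but all of the acetylation, 803 bp and 2559 bp, lay in the unshared part. Ccnd2, the remaining D-type cyclin gene (chr6:127125162-127152188), had no peak of either mark. The nearest H3K27ac stood 184.0 kb away in Dox_Treated and 89.6 kb away in Dox_Untreated cells, and the nearest H3K4me1 90.0 kb and 89.3 kb.

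The CIP/KIP inhibitors differed by little. Cdkn1a encodes p21, the inhibitor that p53 induces (chr17:29090979-29100722). It had 1 acetylation peak, 2953 bp wide in Dox_Treated and 2553 bp in Dox_Untreated cells, which covered the downstream start shown above. H3K4me1 covered 4853 bp in Dox_Treated cells as 1 peak, against 5709 bp in Dox_Untreated cells as 3 peaks. Cdkn1b, the gene of p27 (chr6:134920401-134925525), was the most fully covered member, with H3K27ac over 73.3% of its window in Dox_Treated and 70.7% in Dox_Untreated cells. Those shares were 11086 bp and 10686 bp. Its widest acetylation peak began inside the gene, 3.9 kb from the annotated 5′ end, and ran beyond the flank. That peak also covered the start of the non-coding gene Lockd, at 8.69 kb. It measured 9803 bp in Dox_Treated and 9953 bp in Dox_Untreated cells, and ranked 107th and 79th by width in its list. Cdkn1b promoter bases were acetylated whole in both conditions, and its H3K4me1 covered 12033 bp in Dox_Treated and 11342 bp in Dox_Untreated cells. Cdkn1c, the imprinted gene of p57 (chr7:143458339-143461059), had no acetylation over its body. The nearest peak began 3.29 kb beyond the gene in Dox_Treated and 3.59 kb in Dox_Untreated cells and was 1403 bp and 903 bp wide, and that difference is under 1000 bp. H3K4me1 at Cdkn1c covered 4364 bp in Dox_Treated and 3917 bp in Dox_Untreated cells.

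The INK4 inhibitors also differed by little. At Cdkn2c, the gene of p18 (chr4:109660876-109666756, minus strand), H3K27ac covered 6206 bp in Dox_Treated and 6006 bp in Dox_Untreated cells. Its promoter peak was 4453 bp wide in Dox_Treated and 4303 bp in Dox_Untreated cells. H3K4me1 at Cdkn2c was 12637 bp in Dox_Treated and 11285 bp in Dox_Untreated cells, the widest peak being 11003 bp in the treated list, where the untreated list had 2 of 4553 bp. Cdkn2d, the gene of p19 (chr9:21288459-21291421, minus strand), had 6153 bp in Dox_Treated and 5409 bp in Dox_Untreated cells. These were 1 treated peak of 6153 bp and 3 untreated peaks of 1603, 3003 and 803 bp, and the Cdkn2d window lies wholly in those of Kri1 and Ap1m2. Its H3K4me1 was 6309 bp in Dox_Treated and 5509 bp in Dox_Untreated cells. Leaving out Cdk6, Ccnd1 and Ccnd3, the 6 members with peaks differed by 144 to 744 bp in H3K27ac and by 447 to 1352 bp in H3K4me1.

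**Figure D5:**
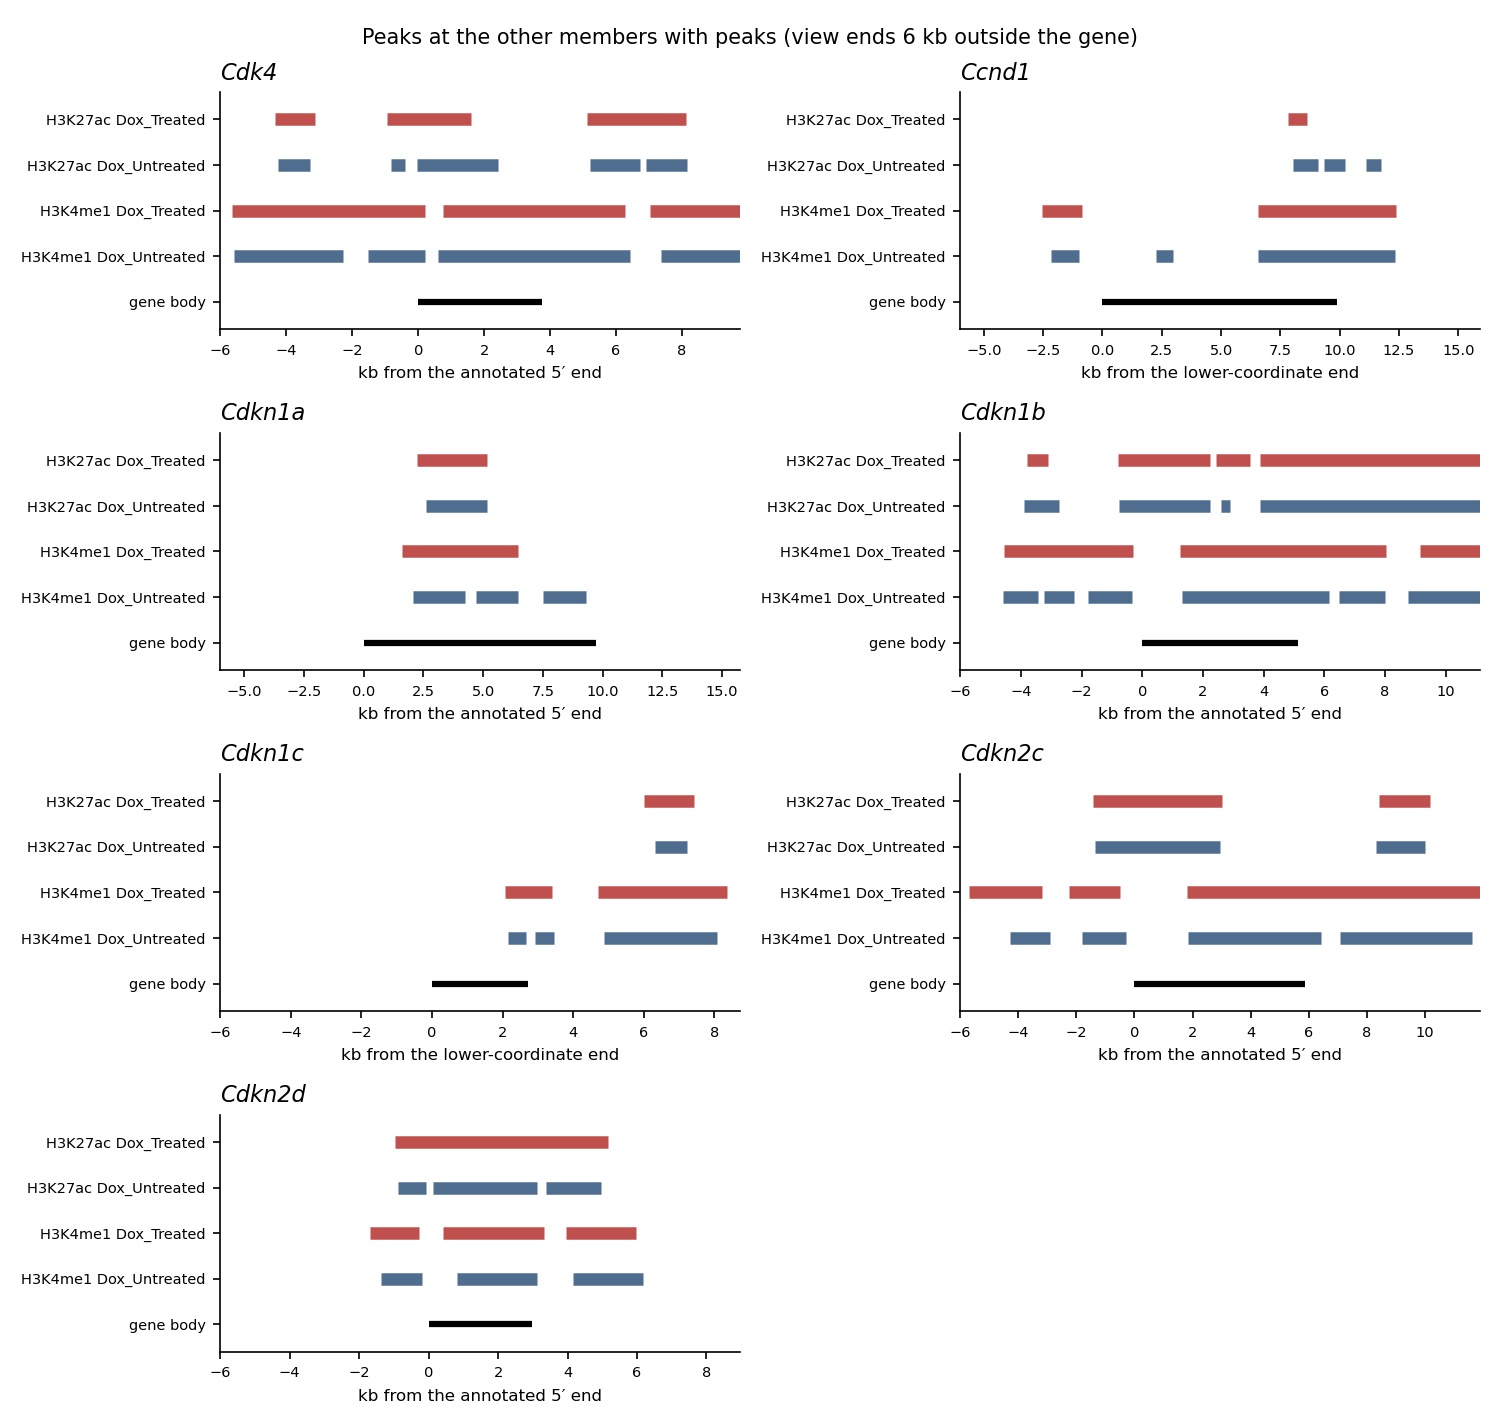
H3K27ac and H3K4me1 peaks of Dox_Treated and Dox_Untreated cells at the other members with peaks, by distance in kb from the annotated 5′ end, or from the lower coordinate for Ccnd1 and Cdkn1c, with the gene body in black; some peaks of Cdk4, Cdkn1b and Cdkn2c run past the edge of the view. Cdkn2d has 1 acetylation peak in Dox_Treated and 3 in Dox_Untreated cells over nearly the same bases.

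The shares of member peaks found in both conditions lay near those of the whole lists. Of 37 treated H3K27ac peaks at members, 34 (91.9%, exact Clopper-Pearson 95% interval 78.1 to 98.3) overlapped an untreated peak by at least 1 bp, beside 82.9% over the whole list. Of 48 untreated peaks 37 (77.1%, 62.7 to 88.0) overlapped a treated one, beside 72.6%. In H3K4me1 the shares were 88.9% (77.4 to 95.8) of the treated and 69.8% (58.9 to 79.2) of the untreated member peaks, beside 79.2% and 73.3%. The intervals cover counting error over peaks alone, and each holds the share of the whole list. They take peaks as independent, though 15 of the 48 untreated H3K27ac peaks and 38 of the 86 untreated H3K4me1 peaks are of Cdk6. The intervals therefore cannot show that the members match the whole lists. The 11 untreated H3K27ac peaks without a counterpart were 8 of Cdk6, 2 of Ccnd1 and 1 of Ccnd3, and all 3 treated ones were of Ccnd3. Within Cdk6, 7 of 15 untreated H3K27ac peaks were shared.

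The wider cell cycle pathway around these genes was read from a list of 44 genes of the kinases, cyclins, RB and E2F families and their regulators, each of which had peaks of both marks. In H3K27ac 20 were longer and 22 shorter in Dox_Treated cells, with a median difference of -4.5 bp, close to the -7.0 bp of all genes. By the rule above, 4.55% (2 genes) were higher and 6.82% (3 genes) lower, near the background of 7.27% and 8.09%. The higher ones were Cdk8, a kinase of the Mediator complex, with 6059 bp in Dox_Treated and 2712 bp in Dox_Untreated cells, and Ccne1, the cyclin that activates CDK2, with 4753 bp and 3053 bp. E2f8, a repressor of the E2F family, was lower, with 8409 bp in Dox_Treated and 12779 bp in Dox_Untreated cells. Fbxw7, which marks cyclin E for destruction, had 3553 bp in Dox_Treated and 6621 bp in Dox_Untreated cells. Rbl2, the RB relative p130, had 2053 bp in Dox_Treated and 3409 bp in Dox_Untreated cells, and was lower in H3K4me1 as well, with 8060 bp and 12233 bp. In H3K4me1 33 of the 44 were longer and 11 shorter, with a median difference of 773.5 bp, beside 391 bp over all genes. Those counts are 75.0% longer and 25.0% shorter, beside 60.7% and 38.7% over all genes. By the rule, 2.27% (1 gene) were higher and 2.27% (1 gene, Rbl2) lower in H3K4me1, beside 8.21% and 4.63% over all genes. The higher one was the phosphatase gene Cdc25a, with 13252 bp in Dox_Treated and 8552 bp in Dox_Untreated cells.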

How the data were processed

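ChIP-seq for H3K27ac and H3K4me1 was read from 4 deposited peak lists of the 24 samples of the series; the other samples were not analysed here. The tools recorded are BWA and bcl2fastq 2.17.1.14, with mm10 as the build, per the submitters' processing notes. Which peak caller and thresholds were used, and how H3K27ac replicates 1 and 2 were merged, is not given in the sources used here. In the files, the deposited H3K4me1 lists give a score by the authors, used to rank peaks within a list, and H3K27ac peaks were ranked by width. Depth is unknown, and deeper sequencing alone can widen or add peaks. Widths run in steps of 50 bp, and H3K27ac peaks were as narrow as 3 bp.

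Peaks on assembled chromosomes were intersected with RefSeq genes (GRCm38.p6), and positions were read as 1-based. Python 3.11.15, numpy 2.4.6, pandas 2.3.3, scipy 1.17.1 and matplotlib 3.10.9 were used, and overlaps were checked with bedtools 2.31.1. The rule for covered length was tested on the untreated lists with peaks removed or added at picked genes. The gene table gives no strand for Ccnd1, Ccnd2 and Cdkn1c, so no 5′ end was set for them. All members were named, with pathway genes past the rule (at most 6 per mark and direction), the widest peaks, single-condition H3K27ac peaks of at least 1000 bp and the 5 genes most like Cdk6, taken from those with at least 1000 bp. Members, lists and rules were chosen with earlier results of these data known. The midpoint split, the sums without Cdk6 and the ranks were added after seeing the data. Alternatives were other windows, the better 50% of each list, equal peak numbers, peaks of at least 200 bp, peaks within 1 kb merged, scaled lengths, a 2-fold rule and a reciprocal overlap of 50%.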

Additional observations from a re-analysis of the deposited data

How the results depend on the processing

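Of the summary values recomputed under the alternatives, 70 stayed close to those reported and 22 moved. Cdk6 H3K27ac was shorter in Dox_Treated cells in all 8 alternatives and past the rule in 7. Its ratio was 0.457 with 20 kb flanks, 0.764 within 5 kb of the annotated ends, 0.369 in the better 50% of each list, 0.439 for peaks of at least 200 bp, 0.462 with peaks within 1 kb merged and 0.443 after scaling. Its decrease ranked 1st of all genes in each of these except near the ends, where it ranked 501st and most of the gene is left out. Members past the H3K27ac rule numbered 1 in gene bodies alone, 1 near the ends and 3 in the better 50%. There Cdkn1c was higher (1403 bp in Dox_Treated and 0 bp in Dox_Untreated cells) beside the 2 lower. For H3K27ac the better 50% are the wider 50%, a cut on the measured quantity itself. The untreated Cdkn1c peak of 903 bp was left out, as it is under that list's median width of 1003 bp. The 0 bp therefore does not mean a lack of acetylation. In H3K4me1 1 member passed in the better 50%, again Cdkn1c, higher, with 4364 bp and 2861 bp. Its untreated H3K4me1 peaks of 503 and 553 bp ranked too low by score to be kept there. Shorter H3K27ac was found at 4 members with merged peaks and shorter H3K4me1 at 5 with 20 kb flanks, where 4 were longer, so that the balance of the reported 6 longer and 3 shorter turned. The summed ratio also crossed 1 without Cdk6, at 1.13 against 0.839 in H3K27ac and 1.15 against 0.961 in H3K4me1. Near the ends, shared peaks were 100% and 92% of treated and untreated H3K27ac peaks and 100% and 91.2% in H3K4me1. With a reciprocal overlap of 50% they were 62.2% and 47.9% in H3K27ac and 53.7% and 32.6% in H3K4me1. In the better 50%, 90.6% of untreated H3K4me1 peaks were shared. The cause of these shifts was not tested. No paired analysis was possible because each mark and condition has 1 list. Unknown depth limits any reading of widths and peak numbers.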

Other observations

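Downstream of Cdkn1b, H3K4me1 was continuous in Dox_Treated cells and broken in Dox_Untreated cells over the long non-coding RNA gene Lockd, which begins 3.57 kb beyond the end of Cdkn1b (chr6:134929092-134951718). The treated list had 1 peak of 24203 bp (9.15 to 33.4 kb from the annotated start of Cdkn1b, ranked 314th by the authors' score). Over that stretch the untreated list had peaks of 6003, 1503, 853 and 12553 bp. Across Lockd, H3K4me1 covered 22170 bp in Dox_Treated and 19429 bp in Dox_Untreated cells, while H3K27ac covered 7689 bp and 10186 bp. This gene was chosen after its values were seen, and the differences have no test.

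One untreated H3K27ac peak of Ccnd3, at 10.3 kb, is 3 bp wide and was the narrowest peak of the members.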
